A study of Mus musculus with 62 samples.

Results

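Proteasome genes were followed through mouse hearts during melanoma growth. They were taken as every gene whose symbol is Psma, Psmb, Psmc, Psmd, Psme, Psmf or Psmg with a number, leaving out the immunoproteasome subunits Psmb8 and Psmb9, and whose mean level was at least 1 TPM, the authors' unit of transcript abundance, which is scaled for gene length and library total. Of 48 matching symbols among the 47643 in the table, 44 were kept. Psmb8 (mean 7.61 TPM) and Psmb9 (3.72 TPM) were left out by name. Psma8 (0.885 TPM) and Psmb11 (0.00148 TPM), the testis and thymus forms of the core, fell under the level, while the lowest genes kept were Psmd9 at 4.65 TPM, Psmd5 at 4.80 TPM and Psmf1 at 5.53 TPM. All 44 were at 1 TPM or more in each of the 61 libraries used, so none depended on the filter on low values.

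The proteasome degrades proteins tagged with ubiquitin. Its core particle is a barrel of stacked rings, in which the alpha rings form a gated entry and the beta rings carry the proteolytic sites. The regulatory particle binds the ubiquitin chain, removes it and unfolds the substrate with a ring of ATPases in its base. In muscle the ubiquitin-proteasome system degrades contractile proteins, and proteasome genes are known to be transcribed together with ubiquitin ligases in wasting skeletal muscle. In the heart the proteasome also clears misfolded proteins. Dedicated chaperones assemble the core (Psmg1 to Psmg4) and the base (Psmd5, Psmd9 and Psmd10), and the core can be capped by other activators (Psme1 to Psme4) or bound by the inhibitor Psmf1.

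The hearts came from female mice aged 2 months that had been injected with cachectic melanoma cells (CAC), with non-cachectic melanoma cells (NCAC) or with no tumour cells, as mock-injected controls (Con). They were collected at 2, 4, 6 and 8 weeks, with 7 CAC hearts at week 8, 4 Con hearts used at week 4 and 5 hearts in each of the other 10 groups. The sample labels give the strain as C57BL6/J, whereas the series text describes nude mice, which lack a thymus and so mature T cells. CAC and NCAC animals received different tumour cells as well as differing in wasting, and these cannot be told apart. Libraries were made from polyadenylated RNA of whole hearts with a stranded kit. In such bulk tissue, fewer cells of a type and less RNA per cell cannot be told apart.

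Levels are the authors' TPM, divided by a library factor so that the typical gene was level across libraries (rescaled TPM). TPM as deposited are given beside them, because the choice decided much of the result. Mitochondrial genes held 52.2 ± 1.92% of TPM in CAC hearts, 57.2 ± 1.06% in NCAC hearts and 58.3 ± 3.28% in Con hearts at week 8 (SD, n = 7, 5 and 5). With TPM as deposited the median of all genes lay 0.19 on the log2 scale higher in CAC than in Con hearts. Con replicate 2 of week 4, with 89.05% mitochondrial TPM, was left out. CAC replicate 3 of week 8 stood apart from its group, with Serpina3n, an acute-phase gene, at 54.9 TPM against 1665 to 2841 TPM in the other 6. Con replicate 1 of week 2 also stood apart, with a mean of 5.57 for the log2 level over the proteasome genes against 5.43 to 5.46 in the other 4. Some of the results that rest on these libraries are also given without them. TPM keep no sequencing depth, so the counting error behind each value is unknown.

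In the 19 Con hearts the proteasome genes spanned a 32.0-fold range of mean rescaled TPM. Psma2, an alpha ring subunit, was highest at 147.7 ± 7.60 and Psmb1, a beta ring subunit, next at 144.6 ± 9.56 rescaled TPM (SD, n = 19 for both). Subunits of the core differed 4.33-fold. By role, the median of the genes' Con levels was 91.3 rescaled TPM for the beta ring, 58.8 for the alpha ring, 95.3 for the base ATPases, 37.6 for the other subunits of the regulatory particle, 47.5 for the activators and 21.5 for the chaperones of the core. The chaperones of the base (4.61 to 10.02 rescaled TPM) and Psmf1 (5.37 rescaled TPM) were lowest. Proteasome genes also varied less than the typical gene tested: the SD within groups had a median of 0.075 on the log2 scale, against 0.13 over all 12541 genes tested, and in 36 of 44 the 12 group means spanned less than the median span of all genes (0.32 on the log2 scale). The genes tested were not matched to them in level, so this low variation cannot be told apart from an effect of level.

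**Figure D1:**
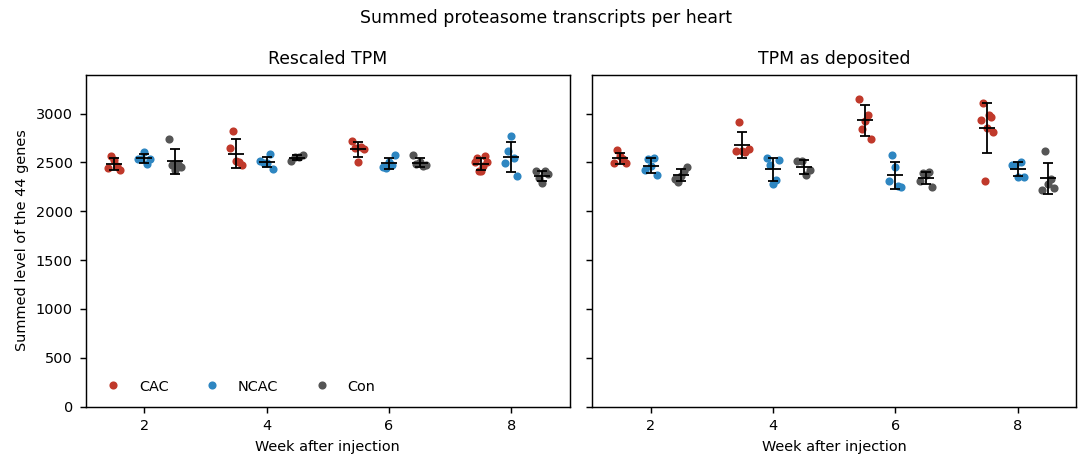
Summed level of the 44 proteasome genes in each heart by week, as rescaled TPM and as TPM deposited by the authors; points are hearts, with CAC left of NCAC and Con. At week 8 the rescaled sums averaged 2486 in CAC, 2557 in NCAC and 2365 in Con hearts, and the sums of TPM as deposited 2853, 2432 and 2337.

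The summed level at week 8 averaged 2486 ± 61.2 rescaled TPM in CAC hearts, 2557 ± 152 in NCAC hearts and 2365 ± 49.6 in Con hearts (SD, n = 7, 5 and 5). The sums of TPM as deposited were 2853 ± 257 in CAC, 2432 ± 75.0 in NCAC and 2337 ± 160.1 in Con hearts. The order of CAC and NCAC thus turned with the scaling.

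At week 8 the proteasome genes of CAC hearts did not move as a block: on rescaled TPM 16 of 44 rose against Con hearts, 5 fell and 23 were not called (limma, adjusted p under 0.05 over 12541 genes). Of all genes, 27.0% were higher and 24.8% lower. The share higher, 36.4%, was near that of all genes, and the share lower, 11.4%, was smaller. The median of the 44 differences was 0.06 on the log2 scale, against 0.01 over all genes tested. The changes were small, between -0.19 and 0.39. On TPM as deposited 36 of 44 rose and none fell, with a median of 0.26 against 0.19 over all genes, of which 50.8% were called higher and 9.98% lower. Rescaled on genes other than mitochondrial and haemoglobin genes, 18 rose and 3 fell, against 29.1% and 21.8% of all genes. Without CAC replicate 3, 15 rose and 7 fell on rescaled TPM. The genes called lower on rescaled TPM were all higher, though not called, on TPM as deposited: Psmb2 by 0.02, Psma4 by 0.05, Psma1 and Psmg2 by 0.09 each and Psme3 by 0.11.

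**Figure D2:**
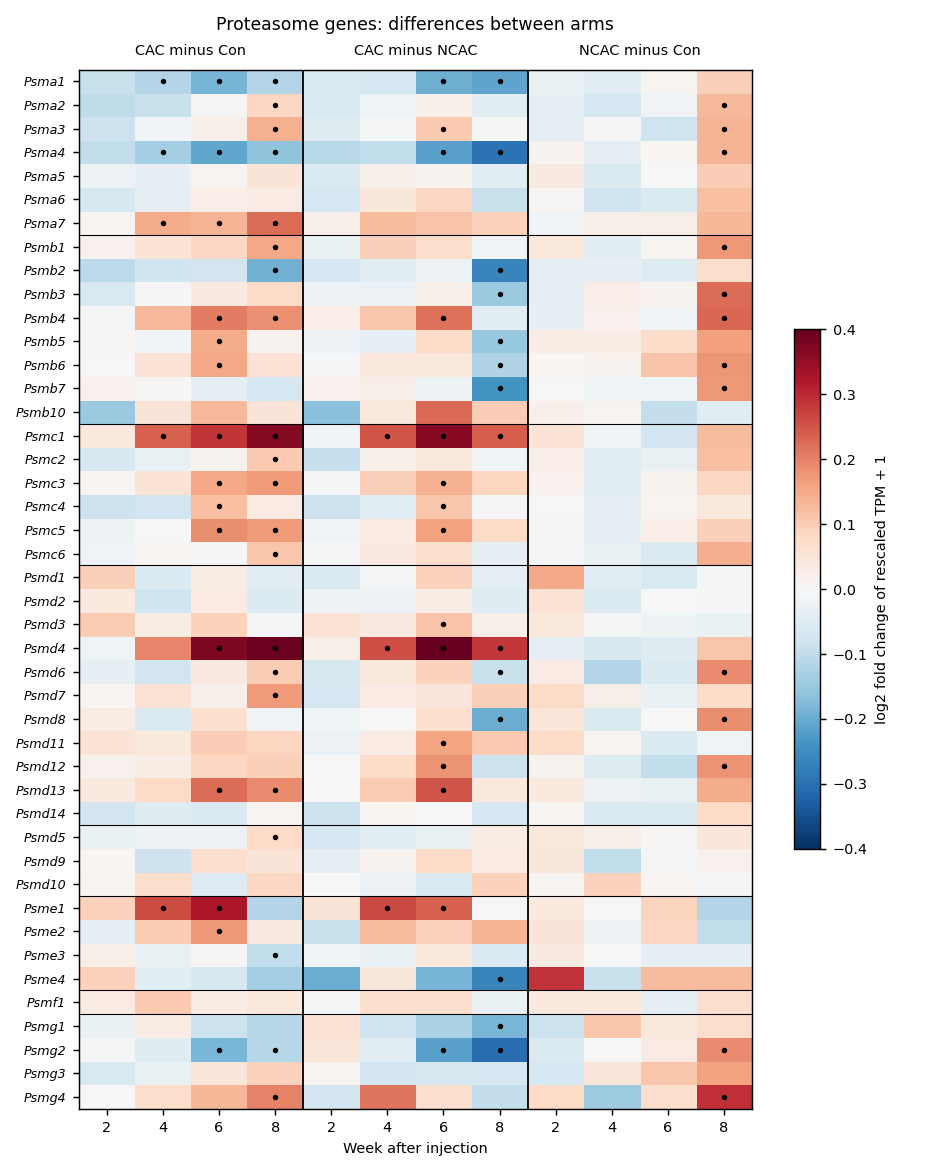
Heat map of log2 differences in rescaled TPM for the 44 proteasome genes, ordered by role, for CAC minus Con, CAC minus NCAC and NCAC minus Con at 2, 4, 6 and 8 weeks; dots mark limma adjusted p under 0.05. Psmc1 and Psmd4 are higher and Psma4 and Psma1 lower in CAC than in Con hearts at weeks 6 and 8, and at week 2 no gene is marked; on TPM as deposited Psma4 and Psma1 are not lower at those weeks.

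The ATPases of the base, which unfold substrates and feed them into the core, had the most calls for their number. At week 8, 5 of 6 rose in CAC against Con hearts and none fell, against 27.0% of all genes higher and 24.8% lower. The median difference of the 6 was 0.14. Against NCAC hearts of week 8, 1 of the 6 rose (median 0.03), where 27.5% of all genes were higher. Against CAC hearts of week 2, 1 of the 6 rose (median 0.07), where 25.3% were higher. In Con hearts the 6 differed by -0.14 to -0.03 between week 8 and week 2, none called, so the low Con level of week 8 enters the rise. The change against Con was greatest for Psmc1 (chr12:100110154-100123405, plus strand, GRCm38, gene ENSMUSG00000021178.9), an ATPase whose tail, in yeast, helps to open the gate of the core. Its level was 101, 119, 120.4, 131, 135, 149 and 151 rescaled TPM in the CAC hearts in rising order, 95.8, 104, 106, 107 and 134 in NCAC hearts, and 91.9, 95.9, 100.5, 102 and 108 in Con hearts. Thus 6 of 7 CAC hearts lay above every Con heart, the exception was replicate 3, and 1 NCAC heart, at 134, lay among the other 6 CAC hearts. Psmc1 rose 1.29-fold in CAC against Con hearts (log2 difference 0.37, SE 0.070, limma adjusted p = 1.65e-05), and by 0.42 without replicate 3. Psmc3 and Psmc5 rose by 0.17 each, with 6 of 7 CAC hearts above every Con heart. Psmc2 and Psmc6 rose by 0.11 each, and Psmc4 differed by 0.03 (limma adjusted p = 0.491), and rose by 0.24 on TPM as deposited. Psmc1 therefore made up more of the ATPase level: a median of 25.8% (22.9% to 27.4%) in CAC, 22.2% (21.9% to 25.3%) in NCAC and 22.8% (21.5% to 23.5%) in Con hearts, a share that does not depend on the scaling.

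Among the other subunits of the regulatory particle, 4 of 11 rose and none fell, where 27.0% of all genes were higher and 24.8% lower. Psmd4 (chr3:95032694-95042614, minus strand, GRCm38, gene ENSMUSG00000005625.15), a receptor for ubiquitin chains, had the largest change of all 44. It stood at 38.0, 45.6, 48.7, 50.1, 53.3, 59.3 and 61.3 rescaled TPM in CAC hearts, 37.5, 37.7, 39.7, 40.0 and 52.8 in NCAC hearts, and 35.6, 37.1, 38.3, 38.9 and 40.8 in Con hearts. Again 6 of 7 CAC hearts were above all Con hearts, replicate 3 was not, and NCAC replicate 3, at 52.8, lay among the other 6 CAC hearts. The rise was 1.31-fold (log2 difference 0.39, SE 0.081, limma adjusted p = 5.35e-05), and 0.46 on the log2 scale without CAC replicate 3. Psmd13, a lid subunit, averaged 29.9 ± 1.46 rescaled TPM in CAC and 26.0 ± 0.43 in Con hearts (SD, n = 7 and 5), with all 7 CAC hearts above all Con hearts (log2 difference 0.19, limma adjusted p = 0.000544). Exons of Psmd13 overlap those of Sirt3 on the other strand, and Sirt3 fell by 0.42. Whether the counting used strand is not stated in the sources, which leaves Psmd13, Psmc3 (beside Slc39a13), Psme1 (beside Emc9) and Psmb7 (beside Nek6) less certain. Psmd7, the lid partner of the deubiquitinase Psmd14, rose by 0.17 (98.6 ± 10.8 in CAC and 87.2 ± 3.91 rescaled TPM in Con hearts). Psmd14 itself differed by 0.01, and the large scaffold subunits Psmd1 and Psmd2 by -0.04 and -0.06, none of them called on rescaled TPM. All 3 were called higher on TPM as deposited, by 0.22 for Psmd14, 0.17 for Psmd1 and 0.16 for Psmd2.

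In the alpha ring 3 of 7 rose and 2 fell in CAC against Con hearts at week 8. All genes were 27.0% higher and 24.8% lower by the same test. Psma7 rose by 0.22 (46.7 ± 3.14 in CAC and 39.8 ± 2.28 rescaled TPM in Con hearts, limma adjusted p = 2.89e-05) and Psma3 by 0.14, with all 7 CAC hearts above every Con heart for Psma3. Psma4 (chr9:54950790-54958030, plus strand, GRCm38, gene ENSMUSG00000032301.13), whose tail, in yeast, helps to close the gate of the core, had 45.3, 46.3, 48.4, 49.1, 50.0, 50.4 and 52.3 rescaled TPM in CAC hearts, 55.7, 59.6, 60.1, 60.7 and 64.5 in NCAC hearts, and 52.3, 52.9, 53.4, 56.4 and 58.2 in Con hearts. All CAC hearts were below all NCAC hearts, and 6 of 7 below all Con hearts. The fall against Con was 0.16 on the log2 scale (SE 0.035, limma adjusted p = 0.000162), whereas on TPM as deposited Psma4 was 0.05 higher and not called (limma adjusted p = 0.365). Within the alpha ring, where no scaling enters, Psma4 held 9.41% to 10.3% of the summed level in CAC, 10.7% to 11.6% in NCAC and 10.8% to 11.7% in Con hearts, and the CAC range overlapped neither of the others. Psma1 fell by 0.12 on rescaled TPM, and was 0.09 higher on TPM as deposited. Its share of the alpha ring was 10.6% to 12.52% in CAC, 11.2% to 13.13% in NCAC and 12.52% to 13.05% in Con hearts. The CAC range overlapped that of NCAC hearts and reached that of Con hearts.

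In the beta ring 2 of 8 rose and 1 fell, near or below the shares of all genes (27.0% higher and 24.8% lower). Psmb4 rose by 0.18 (119 ± 9.77 in CAC and 105 ± 3.21 rescaled TPM in Con hearts) and Psmb1 by 0.16, with all 7 CAC hearts above every Con heart for Psmb1; neither cuts substrates itself. Psmb2 (chr4:126677630-126709714, plus strand, GRCm38, gene ENSMUSG00000028837.8), also without a proteolytic site, had 80.4, 81.6, 81.8, 85.4, 86.2, 89.3 and 93.8 rescaled TPM in CAC hearts, 98.5, 98.9, 100.3, 108 and 108 in NCAC hearts, and 94.2, 95.1, 96.7, 101 and 102 in Con hearts. Every CAC heart was thus below every NCAC and every Con heart. Psmb2 fell by 0.19 against Con hearts on rescaled TPM (SE 0.040, limma adjusted p = 5.14e-05), and differed by 0.02 on TPM as deposited.

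Changes of the assembly chaperones and the alternative caps were at most 0.20 on rescaled TPM. Of the chaperones of the core, Psmg4 rose by 0.20 (SE 0.082, limma adjusted p = 0.0385) and Psmg2, which with Psmg1 guides the alpha ring, fell by 0.11 on rescaled TPM (SE 0.047, limma adjusted p = 0.0363), with a difference of 0.09 on TPM as deposited. As a share of the summed level of Psmg1 to Psmg4, Psmg2 held 33.56% to 38.09% in CAC, 35.8% to 41.85% in NCAC and 36.01% to 43.24% in Con hearts. These ranges overlapped. Psmg1 and Psmg3 were not called (-0.11 and 0.09). Of the chaperones of the base, Psmd5 rose by 0.08 and Psmd10 and Psmd9 were not called (0.08 and 0.05), nor was the inhibitor Psmf1 (0.04). All 3 were called higher on TPM as deposited, Psmd10 by 0.28, Psmd9 by 0.23 and Psmf1 by 0.22, as were Psmg3 by 0.29 and Psme2 by 0.25. Of the activators, Psme3, a nuclear cap, fell by 0.10 on rescaled TPM (SE 0.035, limma adjusted p = 0.018), and was 0.11 higher on TPM as deposited. Psme1, Psme2 and Psme4 were not called on rescaled TPM (-0.12, 0.04 and -0.14). Of the 12 fits that each left out 1 heart, the call was lost in 6 for Psmg4, in 7 for Psmg2, in 7 for Psmd5 and in 1 for Psme3. Without CAC replicate 3, Psme1 fell by 0.16 (limma adjusted p = 0.0226) and Psmg1 by 0.15 (limma adjusted p = 0.0113).

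**Figure D3:**
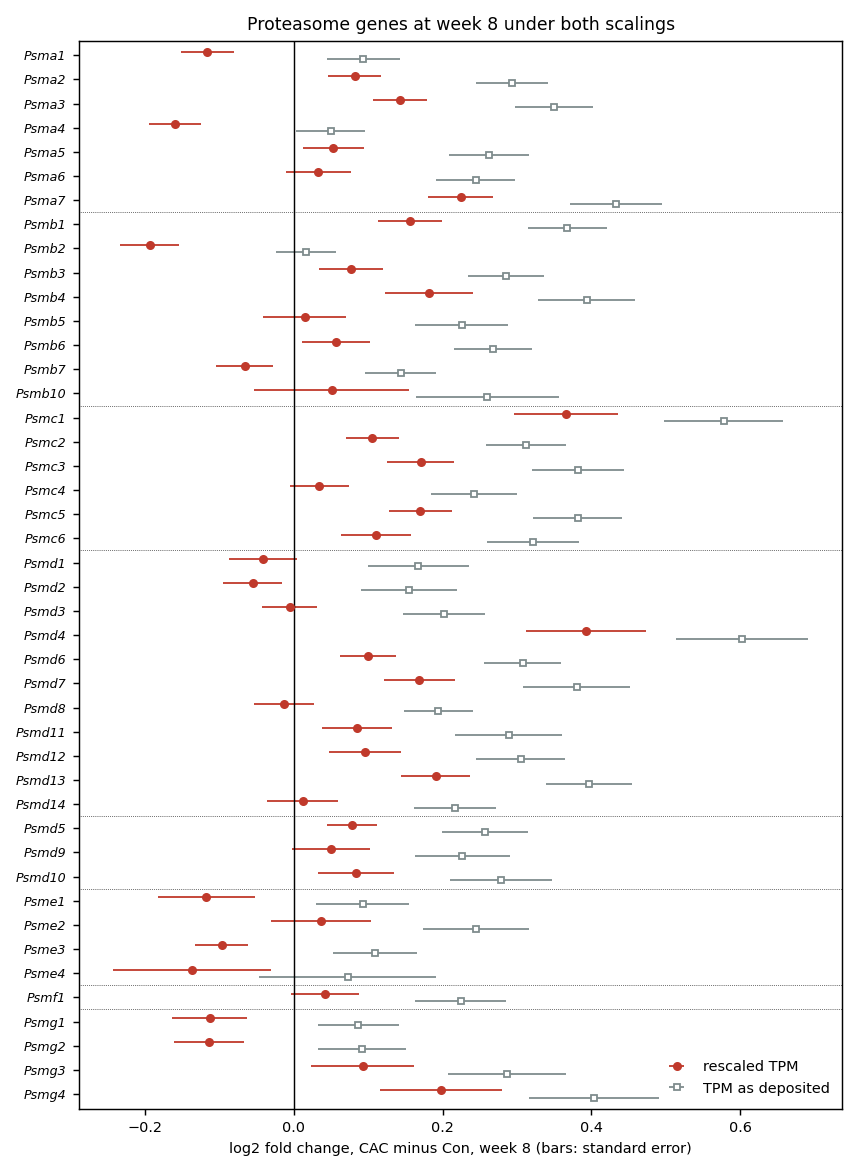
Log2 difference with SE of each of the 44 proteasome genes in CAC minus Con hearts at week 8, on rescaled TPM and on TPM as deposited by the authors. On rescaled TPM the median gene is at 0.06, with 5 genes called lower; on TPM as deposited the median is 0.26 and no gene is called lower.

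Promoters are shown for 4 genes, so that those with the largest rises (Psmd4 and Psmc1), a gene called lower (Psma4) and a catalytic subunit that was not called (Psmb5) can be read side by side. They run from 250 bases before to 50 bases after the RefSeq start (GRCm38.p6): Psmd4 at chr3:95042565-95042864 on the minus strand, Psmc1 at chr12:100109952-100110251 on the plus strand, Psma4 at chr9:54950609-54950908 on the plus strand and Psmb5 at chr14:54617946-54618245 on the minus strand. Sequences are 5′ to 3′ on the gene's strand, and capitals mark CCAAT, read as ATTGG where it lies on the other strand, and TGACNNNGC, the core of the antioxidant response element that NRF1 and NRF2 bind. 
Psmd4: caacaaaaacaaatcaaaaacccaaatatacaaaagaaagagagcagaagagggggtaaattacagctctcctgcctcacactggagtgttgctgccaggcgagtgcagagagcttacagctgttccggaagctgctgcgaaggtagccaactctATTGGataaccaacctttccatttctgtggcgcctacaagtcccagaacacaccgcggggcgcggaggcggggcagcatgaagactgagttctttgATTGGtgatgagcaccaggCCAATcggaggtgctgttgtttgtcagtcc
Psmc1: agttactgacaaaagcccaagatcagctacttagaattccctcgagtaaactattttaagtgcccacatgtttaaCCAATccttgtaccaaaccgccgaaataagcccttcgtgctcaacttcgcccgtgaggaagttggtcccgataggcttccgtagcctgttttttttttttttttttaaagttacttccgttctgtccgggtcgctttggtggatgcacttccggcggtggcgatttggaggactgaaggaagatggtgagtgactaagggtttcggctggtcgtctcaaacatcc
Psma4: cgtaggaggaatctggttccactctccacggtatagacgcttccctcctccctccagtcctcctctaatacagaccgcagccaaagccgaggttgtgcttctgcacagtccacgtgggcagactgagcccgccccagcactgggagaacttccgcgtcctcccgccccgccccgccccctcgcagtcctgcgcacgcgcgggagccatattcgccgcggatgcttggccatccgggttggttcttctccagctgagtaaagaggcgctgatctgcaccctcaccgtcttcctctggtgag
Psmb5: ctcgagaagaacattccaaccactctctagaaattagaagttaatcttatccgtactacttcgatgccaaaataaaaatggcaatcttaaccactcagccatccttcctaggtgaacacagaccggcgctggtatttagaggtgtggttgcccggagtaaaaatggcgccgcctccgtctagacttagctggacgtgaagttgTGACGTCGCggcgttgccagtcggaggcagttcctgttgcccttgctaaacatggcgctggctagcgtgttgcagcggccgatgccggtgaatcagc
Psmd4 held 3 CCAAT matches, Psmc1 held 1, Psma4 held neither motif and Psmb5 held 1 TGACNNNGC match. The table listed 40 promoters for 37 of the 44 genes. On either strand 6 of the 40 held TGACNNNGC, against 14.4% of 11979 promoters of the genes tested, and 12 held CCAAT, against 37.3%; in 0 of the 40 did a match of one overlap a match of the other. TGACNNNGC stood in the promoters of Psmb5, Psmb6, Psmc6, Psmd9, Psmd12 and Psme4, that is of 1 of 13 genes called higher at week 8, none of 3 called lower and 5 of 21 not called. CCAAT stood in the promoters of 6 of 13 genes called higher, 2 of 3 called lower (Psma1 and Psme3) and 4 of 21 not called. These are matches of letters and not measured binding sites.

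**Figure D4:**
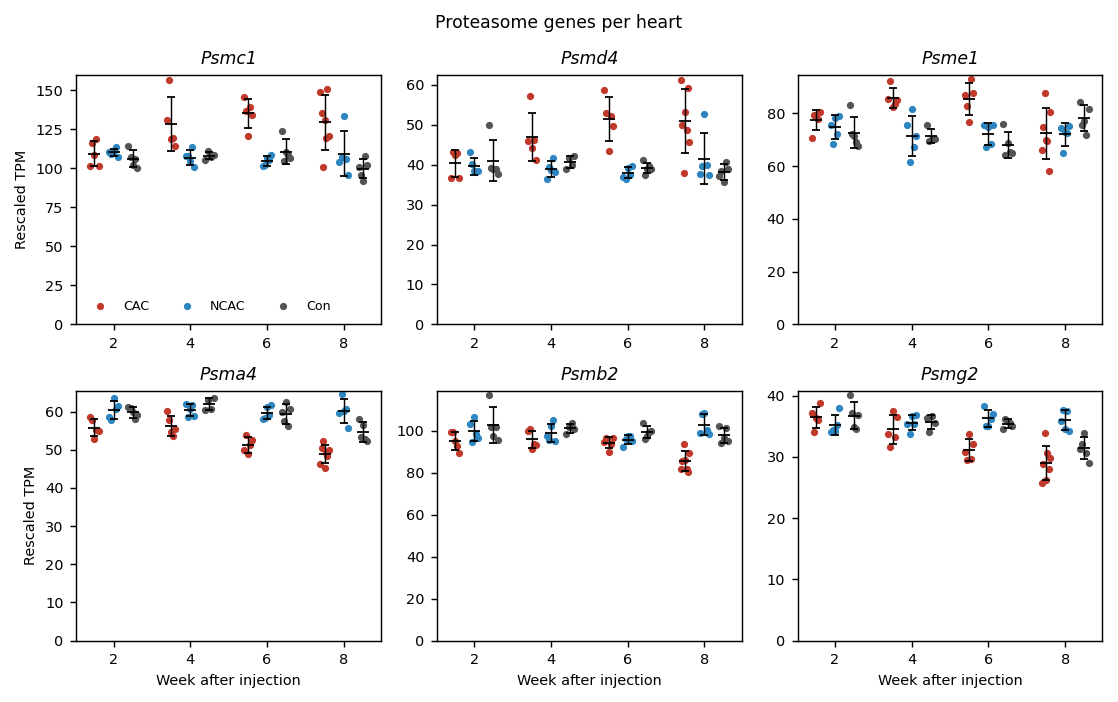
Rescaled TPM of Psmc1, Psmd4, Psme1, Psma4, Psmb2 and Psmg2 in each heart by week, with CAC left of NCAC and Con and with group mean and SD. At week 8, 6 of 7 CAC hearts are above every Con heart for Psmc1 and Psmd4, and all 7 are below every NCAC heart for Psma4, Psmb2 and Psmg2; on TPM as deposited these last 3 genes differ between CAC and NCAC by 0.05 or less on the log2 scale.

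The earlier weeks show when the differences between CAC and Con hearts appeared. At week 2 none of the 44 was called (limma), with 6 at an unadjusted p under 0.05, against 0.351% of all genes higher and 0.0478% lower; on TPM as deposited 1 was called higher, against 1.83% of all genes, and none lower, against 0.00797%. At week 4, 3 rose and 2 fell, against 8.44% and 6.96% of all genes, and on TPM as deposited 5 rose and none fell, against 12.7% and 2.36%. At week 6, 12 rose and 3 fell, against 19.7% and 17.9% of all genes, with a median of 0.04 against 0.00 over all genes. The week-6 counts on TPM as deposited were 40 rising and none falling, with a median of 0.27 against 0.21 over all genes, of which 50.5% were called higher and 5.25% lower.

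At week 4 the activator Psme1, which with Psme2 forms a cap that interferon induces, changed most. It stood at 82.5, 83.7, 84.9, 85.3 and 92.2 rescaled TPM in CAC hearts, 61.7, 67.4, 71.6, 75.4 and 81.5 in NCAC hearts, and 69.6, 70.1, 70.2 and 75.4 in the 4 Con hearts. All CAC hearts were above all hearts of the other arms (log2 difference from Con 0.26, SE 0.074, limma adjusted p = 0.0121). Psmc1 rose by 0.24 (SE 0.080, limma adjusted p = 0.0355) and Psma7 by 0.15 (limma adjusted p = 0.0356), with the groups apart for both. Psma4 and Psma1 fell by 0.14 and 0.12 on rescaled TPM, and differed by -0.03 and -0.01, not called, on TPM as deposited. These week-4 calls depended on single hearts. Without CAC replicate 2 there was 1 call, with Psmc1 at 0.16 (limma adjusted p = 0.22) and Psme1 at 0.24 (limma adjusted p = 0.0545), and without Con replicate 5 there was also 1.

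At week 6 the smallest p-values belonged to Psma4, Psma1 and Psme1. Psma4 had 48.8, 49.9, 51.2, 52.6 and 53.9 rescaled TPM in CAC hearts, 58.2, 58.4, 59.0, 61.2 and 61.8 in NCAC hearts, and 56.3, 57.5, 60.0, 60.7 and 62.5 in Con hearts. Psma1 averaged 58.4 ± 2.77 in CAC and 66.5 ± 1.63 in Con hearts (SD, n = 5 each). For both genes every CAC heart was below every other heart of that week. The falls were 0.21 (SE 0.038, limma adjusted p = 1.97e-05) and 0.19 (SE 0.039, limma adjusted p = 0.000124) against Con on rescaled TPM, with differences of 0.03 and 0.05 on TPM as deposited. As at week 8, Psma4 held a smaller share of the alpha ring, 9.20% to 10.3% in CAC, 11.3% to 11.6% in NCAC and 10.8% to 11.8% in Con hearts. Psme1 stood at 76.5, 82.6, 86.8, 87.8 and 93.0 rescaled TPM in CAC hearts, 67.0, 68.4, 74.9, 75.4 and 75.4 in NCAC hearts, and 64.0, 65.0, 65.4, 68.7 and 76.0 in Con hearts. Its CAC hearts were again above all the others (0.33, SE 0.070, limma adjusted p = 0.00019), and its partner Psme2 rose by 0.17 (limma adjusted p = 0.0498). Psmd4 rose by 0.37 with all 5 CAC hearts above all Con hearts (51.4 ± 5.61 in CAC and 39.3 ± 1.29 rescaled TPM in Con hearts), and Psmc1 by 0.29 (135 ± 9.18 in CAC and 111 ± 7.78). By role, 4 of 6 base ATPases, 3 of 8 beta ring and 2 of 11 other regulatory particle genes rose on rescaled TPM. So did 2 of 4 activator and 1 of 7 alpha ring genes, where 19.7% of all genes were higher. On rescaled TPM 2 alpha ring genes and Psmg2 fell, where 17.9% of all genes were lower. On TPM as deposited 40 of the 44 rose and none fell.

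At week 8 Psme1 was not called between CAC and Con hearts. Its CAC hearts ranged from 58.2 to 87.6 rescaled TPM with a median of 69.8, and the Con hearts stood at 71.9, 75.7, 77.1, 81.8 and 84.2. The CAC median lay below every Con heart, while the highest CAC heart, replicate 3, lay above them all. Without replicate 3 Psme1 was called lower in CAC than in Con hearts (-0.16, limma adjusted p = 0.0226). The difference between CAC and Con was smaller at week 8 than at week 6 by 0.44 (SE 0.096, limma adjusted p = 0.0288), the only 1 of the 44 called in that test, against 0.0399% of all genes higher and 0.167% lower. That call was lost in 10 of 22 fits that each left out 1 heart, and held without CAC replicate 3 (-0.49, limma adjusted p = 0.00126).

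The CAC hearts were next compared with the NCAC hearts, which had received the non-cachectic cells. At week 2 none was called (limma, 2 at an unadjusted p under 0.05), against 0.510% of all genes higher and 0.231% lower, nor was any on TPM as deposited (0.582% and 0.00797% of all genes). At week 4, Psme1 (0.26, limma adjusted p = 0.0059), Psmd4 (0.26, limma adjusted p = 0.0313) and Psmc1 (0.25, limma adjusted p = 0.0147) rose and none fell, against 9.94% and 8.04% of all genes. With TPM as deposited 10 rose and none fell, against 13.7% and 2.84%. At week 6, 12 rose and 3 fell, against 21.1% and 19.7%, and Psma4 (-0.22), Psma1 (-0.20) and Psmd13 (0.25) had the smallest p-values. With TPM as deposited 37 rose and none fell, against 47.7% and 6.85% of all genes, and Psma4 and Psma1 differed by 0.00 and 0.02. At week 8, 2 rose and 12 fell, against 27.5% and 24.3%, with a median of -0.04 against 0.02 over all genes. The week-8 direction turned with the scaling. On TPM as deposited 32 rose and none fell, with a median of 0.22 against 0.24 over all genes, of which 57.4% were called higher and 8.76% lower. Rescaled on genes other than mitochondrial and haemoglobin genes 18 rose and 6 fell, near the shares of all genes (41.4% and 15.5%). Without CAC replicate 3, 7 rose and 11 fell on rescaled TPM.

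The 12 week-8 falls against NCAC on rescaled TPM, 27.3% of the 44, were near the share of all genes lower, 24.3%. Among them were 5 of 8 beta ring, 2 of 7 alpha ring and 2 of 4 core chaperone genes. None of the 44 fell on TPM as deposited, and 6 fell when rescaled without mitochondrial and haemoglobin genes. Psma4 (-0.29, SE 0.035, limma adjusted p = 8.07e-10), Psmb2 (-0.26, SE 0.040, limma adjusted p = 1.81e-07) and Psmg2 (-0.30, SE 0.047, limma adjusted p = 2.76e-07) had the smallest p-values, with every CAC heart below every NCAC heart for each. Psmg2 ranged from 25.7 to 33.9 with a median of 28.8 rescaled TPM in CAC hearts, and had 34.2, 34.6, 35.8, 37.5 and 37.7 in NCAC hearts and 29.0, 30.7, 31.4, 32.0 and 33.9 in Con hearts. These 3 differences were, on TPM as deposited, -0.04, 0.00 and -0.05, none called. Psmd4 and Psmc1 were the 2 genes that rose (0.28 and 0.24), and on TPM as deposited they rose by 0.54 and 0.50.

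Between NCAC and Con hearts none of the 44 was called by limma at weeks 2, 4 and 6, with 2, 1 and 2 at an unadjusted p under 0.05 (all genes 0% higher and 0.0239% lower at week 2, and 0% both ways at weeks 4 and 6). At week 8, 13 rose and none fell on rescaled TPM, against 3.91% and 1.76% of all genes, with a median of 0.12 against -0.01 over all genes. They were 5 beta ring, 3 alpha ring, 3 regulatory particle and 2 core chaperone genes, and no ATPase. Psmb3, a beta ring subunit, had 39.6, 44.7, 46.7, 46.8 and 52.1 rescaled TPM in NCAC hearts and 37.9, 38.2, 39.1, 39.4 and 40.8 in Con hearts, 4 of 5 NCAC hearts being above all Con hearts (0.22, SE 0.047, limma adjusted p = 0.00201). Psmd6, a lid subunit, rose by 0.19, and Psmd8, another lid subunit, by 0.18. No gene was called on TPM as deposited (0.486% of all genes higher and 0.223% lower), with Psmb3 at 0.17 (limma adjusted p = 0.111). Rescaled without mitochondrial and haemoglobin genes 2 rose and 1 fell, against 1.48% and 7.62% of all genes. In a fit of only the NCAC and Con hearts of week 8 none was called, and with all 62 libraries 2 were. Leaving out NCAC replicate 3, in which Psmd4 was 52.8 against 37.5 to 40.0 rescaled TPM in the other 4, left 3 calls. Without NCAC replicate 2 or Con replicate 3 there were 7, without Con replicate 5 there were 8, and without NCAC replicate 5 there were 21. CAC against Con, CAC against NCAC and NCAC against Con share their hearts, so their results are not independent.

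Over time, 6 of 44 were higher and 7 lower in CAC hearts of week 8 than of week 2, against 25.3% and 22.3% of all genes. Without CAC replicate 3 of week 8 there were 8 higher and 8 lower. Psmg2 averaged 29.0 ± 2.77 at week 8 and 36.4 ± 1.72 rescaled TPM at week 2 (-0.32, SE 0.047, limma adjusted p = 1.22e-07), Psmb7 averaged 57.5 ± 2.74 at week 8 and 67.5 ± 2.32 at week 2 (-0.23), and Psma4 48.8 ± 2.41 at week 8 and 55.8 ± 2.35 at week 2 (-0.19), with all 7 week-8 hearts below all 5 week-2 hearts for each (SD). The differences on TPM as deposited were -0.17 for Psmg2 (limma adjusted p = 0.0138), -0.07 for Psmb7 (limma adjusted p = 0.197) and -0.04 for Psma4 (limma adjusted p = 0.544), so that only the first was called. On that scaling 22 rose and 1 fell, against 42.6% and 10.1% of all genes. In Con hearts 9 fell and none rose on rescaled TPM, against 3.44% of all genes lower and 2.62% higher, led by Psmg2 (31.4 ± 1.79 at week 8 and 36.7 ± 2.20 rescaled TPM at week 2, -0.22, limma adjusted p = 0.00485), Psmb3 (-0.19) and Psmd6 (-0.15). None was called in Con hearts on TPM as deposited, and on rescaled TPM 1 was left without Con replicate 1 of week 2 and 3 or 4 without Con replicate 2, 3 or 5 of week 8. Rescaled without mitochondrial and haemoglobin genes, 2 rose and 2 fell in Con hearts, against 5.32% and 1.91% of all genes. In NCAC hearts none was called (limma, 1 at an unadjusted p under 0.05), against 0% of all genes in either direction. Con hearts of week 8 had the lowest group mean for 20 of the 44 genes, and CAC hearts of week 6 the highest for 17.

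Whether the difference between arms itself changed from week 2 to week 8 was tested as an interaction. For CAC against Con, 7 genes shifted up and none down, against 16.6% and 14.8% of all genes. Psma3 (0.23, limma adjusted p = 0.00098), Psma2 (0.18, limma adjusted p = 0.00587) and Psmd4 (0.41, limma adjusted p = 0.00656) had the smallest p-values, and Psma7, Psmc1, Psmc2 and Psmc5 were the others. Without CAC replicate 3 of week 8 there were 11 up and 1 down. The 22 fits that each left out 1 heart, Con replicate 1 of week 2 among them, gave 7 to 12 calls. From week 2 to week 8 the 7 alpha ring genes moved by -0.19 to 0.09 in CAC hearts on rescaled TPM. In Con hearts they moved by -0.155 to -0.0939, with 4 called lower, against 3.44% of all genes. The shifts of Psma3 and Psma2 are therefore in part a fall in Con hearts. For CAC against NCAC, 1 shifted up (Psmc1, 0.26) and 7 down on rescaled TPM, against 16.7% and 15.3%, among them Psmg2 (-0.35, limma adjusted p = 9.39e-05), Psmb7 (-0.26, limma adjusted p = 0.000436) and Psma4 (-0.18, limma adjusted p = 0.00553). Here 3 shifted up and 7 down without CAC replicate 3 of week 8. On TPM as deposited the counts were 13 up and none down for CAC against Con (19.1% and 7.45% of all genes), and 18 up and none down for CAC against NCAC (29.8% and 5.92%). There Psmg2 (-0.17, limma adjusted p = 0.115), Psmb7 (-0.07, limma adjusted p = 0.416) and Psma4 (0.00, limma adjusted p = 0.987) were not called. Rescaled without mitochondrial and haemoglobin genes, 14 shifted up and none down for CAC against Con (17.5% and 12.3% of all genes). For CAC against NCAC, 15 shifted up and 2 down on that rescaling (26.8% and 8.90%).

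**Figure D5:**
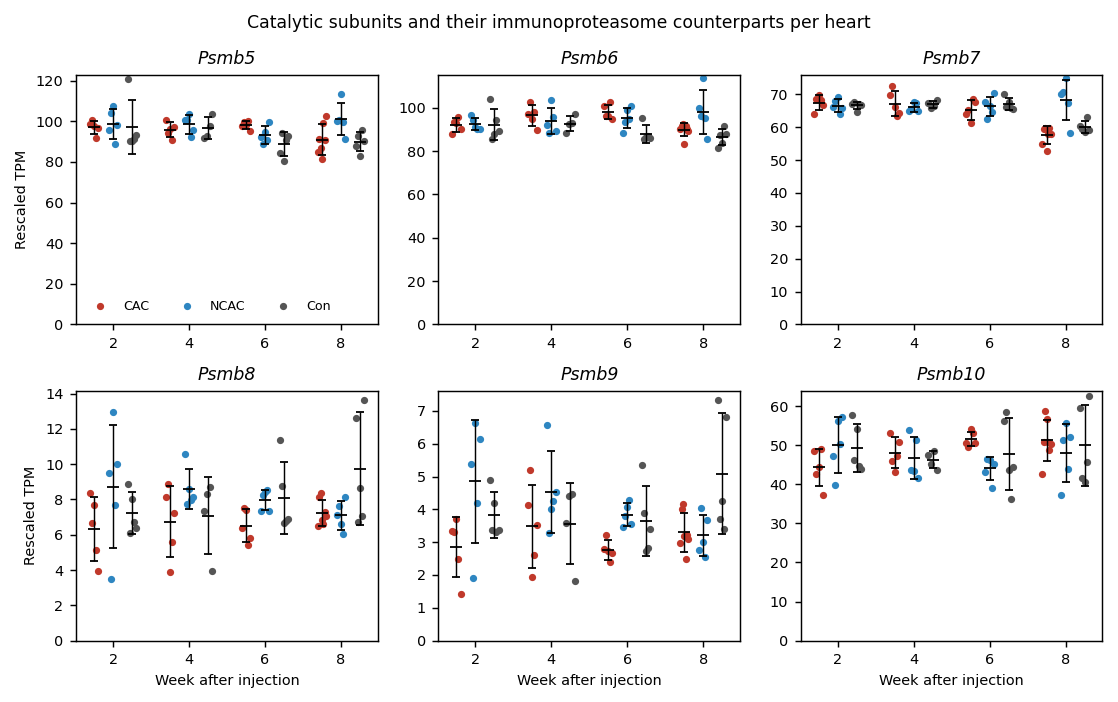
Rescaled TPM of the catalytic subunits Psmb5, Psmb6 and Psmb7 and of their immunoproteasome counterparts Psmb8, Psmb9 and Psmb10 in each heart by week, with CAC left of NCAC and Con. At week 8 Psmb5, Psmb6 and Psmb7 are called lower in CAC than in NCAC hearts, by 0.15, 0.12 and 0.24 on the log2 scale. On TPM as deposited they are higher by 0.11, 0.14 and 0.02, and only Psmb6 is called.

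The group means of the catalytic subunits spanned 0.18 (Psmb6), 0.19 (Psmb5), 0.23 (Psmb10) and 0.25 (Psmb7) on the log2 scale across the 12 groups, against a median of 0.21 over the 44 genes. Psmb5, the chymotrypsin-like subunit, averaged 97.1 ± 3.22, 95.8 ± 3.75, 98.2 ± 1.89 and 91.0 ± 7.56 rescaled TPM in CAC hearts at weeks 2, 4, 6 and 8, 98.8 ± 7.33, 98.4 ± 4.56, 93.2 ± 4.29 and 101 ± 7.88 in NCAC hearts, and 97.3 ± 13.3, 96.5 ± 5.5, 88.6 ± 5.84 and 89.9 ± 4.73 in Con hearts (SD, n as above). Psmb6, the caspase-like subunit, averaged 92.0 ± 3.02, 96.5 ± 4.76, 98.1 ± 3.29 and 89.8 ± 3.05 in CAC hearts, 92.5 ± 2.81, 93.8 ± 6.11, 95.2 ± 4.73 and 98.2 ± 10.2 in NCAC hearts, and 92.1 ± 7.19, 92.7 ± 3.54, 88.0 ± 4.09 and 86.4 ± 3.76 in Con hearts. Against Con on rescaled TPM, CAC hearts were called at week 6 for Psmb5 (0.15, limma adjusted p = 0.0466) and for Psmb6 (0.16, limma adjusted p = 0.0105), and the Psmb5 call was lost in 7 of 10 fits that each left out 1 heart. At week 8 neither was called, with 95% intervals of the log2 difference of -0.09 to 0.12 for Psmb5 and -0.03 to 0.15 for Psmb6. With TPM as deposited both were called higher at week 6 (0.39 and 0.40) and at week 8 (Psmb5 0.23, limma adjusted p = 0.00189, and Psmb6 0.27, limma adjusted p = 2.37e-05), past the upper ends of those intervals. Against NCAC hearts of week 8 both were called lower on rescaled TPM. Of 12 fits that each left out 1 heart, that call was lost in 2 for Psmb5 and 3 for Psmb6. On TPM as deposited Psmb6 was called higher instead (0.14, limma adjusted p = 0.0166) and Psmb5 was not called (0.11, limma adjusted p = 0.114).

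Psmb7, the trypsin-like subunit, averaged 67.5 ± 2.32, 67.2 ± 3.84, 65.3 ± 2.98 and 57.5 ± 2.74 rescaled TPM in CAC hearts at the 4 times, 66.6 ± 2.01, 66.1 ± 1.41, 66.3 ± 2.98 and 68.3 ± 6.19 in NCAC hearts, and 66.7 ± 1.13, 67.0 ± 1.09, 67.1 ± 1.84 and 60.2 ± 1.82 in Con hearts. It was thus lowest at week 8 in both CAC and Con hearts, and not called between them on rescaled TPM (-0.07, limma adjusted p = 0.151). On TPM as deposited it was called higher in CAC than in Con hearts, by 0.20 at week 6 (limma adjusted p = 0.000862) and by 0.14 at week 8 (limma adjusted p = 0.00806). Against NCAC it fell by 0.24 on rescaled TPM (limma adjusted p = 7.68e-07), and differed by 0.02 on TPM as deposited. Psmb10, which replaces Psmb7 in the immunoproteasome, averaged 44.4 ± 4.82, 48.1 ± 3.97, 51.6 ± 1.89 and 51.3 ± 5.26 in CAC hearts, 50.1 ± 7.13, 46.8 ± 5.39, 44.1 ± 3.07 and 48.1 ± 7.42 in NCAC hearts, and 49.3 ± 6.25, 46.3 ± 2.21, 47.8 ± 9.32 and 50.0 ± 10.3 in Con hearts. It varied most among the 44 in Con hearts, with a coefficient of variation of 15.2%, and CAC hearts were not called against Con at any week on rescaled TPM. It was called higher on TPM as deposited at week 6 (0.37, limma adjusted p = 0.00245) and week 8 (0.26, limma adjusted p = 0.0174). Against NCAC hearts Psmb10 was likewise not called on rescaled TPM at those weeks. On TPM as deposited it was called higher than in NCAC hearts, by 0.445 at week 6 (limma adjusted p = 0.00036) and 0.357 at week 8 (limma adjusted p = 0.00112). Of the immunoproteasome subunits outside the set, Psmb9 fell by 0.46 at week 8 (3.31 ± 0.59 in CAC and 5.09 ± 1.83 rescaled TPM in Con hearts, limma adjusted p = 0.036), a call lost without any of CAC replicates 1, 5 or 7 or Con replicates 1 or 5. It differed by -0.29 on TPM as deposited (limma adjusted p = 0.154). Psmb8 differed by -0.33 (limma adjusted p = 0.124). As shares, Psmb9 made up 2.63% to 4.32% of Psmb6 and Psmb9 together in CAC, 2.58% to 4.09% in NCAC and 3.58% to 8.24% in Con hearts at week 8, and these ranges overlapped.

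The genes that act with the proteasome were followed in the same comparison, CAC against Con at week 8, in which 27.0% of all genes were higher and 24.8% lower. Of 16 other subunits and proteins bound to the proteasome, 3 rose and 4 fell (median 0.02), and without CAC replicate 3 the counts were 3 and 7. Uchl5, a deubiquitinase of the regulatory particle, rose by 0.43 (12.6 ± 1.60 in CAC and 9.04 ± 0.61 rescaled TPM in Con hearts, limma adjusted p = 2.25e-06), with all 7 CAC hearts above. Zfand2b, which binds the particle, rose by 0.30. AI314180, the mouse gene for the Ecm29 scaffold, and Zfand5, an activator of the proteasome, fell by 0.18 each on rescaled TPM and differed by 0.03 and 0.02 on TPM as deposited. Of 14 transcription factors of proteasome genes and enzymes that process them, 6 rose and 3 fell (median 0.04). Nfe2l1 (NRF1), which raises proteasome genes when proteasome activity is short, fell. It ranged from 115 to 146 with a median of 133 rescaled TPM in CAC hearts, and had 165, 169, 169, 173 and 175 in Con hearts, every CAC heart being below. The difference was -0.38 on the log2 scale (SE 0.053, limma adjusted p = 3.37e-08), and -0.17 on TPM as deposited (limma adjusted p = 0.0373). Nfe2l1 was also lower at week 6 (-0.22, limma adjusted p = 0.00154). Nfe2l2 (NRF2), the oxidative-stress factor, rose by 0.28 (30.2 ± 2.97 in CAC and 24.8 ± 2.79 rescaled TPM in Con hearts, limma adjusted p = 0.00755). Maff, a small partner of both, rose by 1.11 and the protease Ddi2, which cuts NRF1 to its active form, by 0.46, while Foxo4 fell by 0.23 and differed by -0.02 on TPM as deposited.

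Of 11 targets of NRF2 tested, 5 rose and none fell (median 0.17), where 27.0% of all genes were higher and 24.8% lower, shares that apply also to the lists that follow. Nqo1 averaged 118 ± 19.7 in CAC and 64.1 ± 9.54 rescaled TPM in Con hearts, a rise of 0.86 with all 7 CAC hearts above (limma adjusted p = 1.62e-08). Hmox1 rose by 1.95, Gsta3 by 0.99, Gclm by 0.36 and Gclc by 0.21. Of the 5 calls, 3 were left without CAC replicate 1 or 6, and without replicate 3 there were 6 higher and 2 lower. Of 14 ubiquitin genes and enzymes, 3 rose and 6 fell (median -0.09). Rps27a, a ubiquitin-ribosome fusion, rose by 0.57. The conjugating enzymes Ube2o and Ube2l3 fell by 0.26 and 0.12 on rescaled TPM. They differed by -0.07, not called, and by 0.08 on TPM as deposited. Of 14 shuttle factors and p97 genes, 2 rose (Sqstm1 0.32, Ubqln2 0.14) and 2 fell (the unfoldase Vcp and Ubqln4, by 0.23 each). Both Vcp and Ubqln4 differed by -0.02 on TPM as deposited and were not called there. Of 13 ubiquitin ligases known from muscle atrophy, 3 rose and 1 fell. Fbxo31 rose by 1.40 (81.8 ± 33.7 in CAC and 27.8 ± 2.14 rescaled TPM in Con hearts), Cblb by 0.66 and Trim54 by 0.37. Mul1 fell by 0.15 on rescaled TPM and was 0.05 higher on TPM as deposited. Of 22 chaperonin and heat-shock genes, 2 rose and 7 fell. The mitochondrial chaperones Hspd1, Hspa9 and Hspe1 fell by 0.57, 0.34 and 0.33, the last of these not called on TPM as deposited, while Cct4 of the cytosolic chaperonin rose by 0.27. At week 2 none of these lists had a call.

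Markers of the cells in the heart also differed between the arms. The summed cardiomyocyte markers were 17740 to 31670 (median 20660) rescaled TPM in CAC, 30270 to 40600 (median 32320) in NCAC and 31920 to 34710 (median 32200) in Con hearts at week 8, all CAC hearts being below all Con hearts. The sum of these 8 genes was carried by Actc1, with a median of 2919 in CAC and 9795 in Con hearts, and Myh6, with 3858 in CAC and 6824 in Con hearts. Tnnt2 of the same list ran the other way, at 3544 to 4093 in CAC and 2349 to 2938 in Con hearts. The 10 macrophage markers summed to 495.5 to 796.6 (median 732) in CAC, 173 to 297 (median 245) in NCAC and 229 to 339.5 (median 281) in Con hearts, so that the CAC hearts were apart from both. They were apart already at week 4 (373 to 497 in CAC, 216 to 295 in NCAC and 227 to 313 in Con hearts) and at week 6 (438 to 650 in CAC, 237 to 320 in NCAC and 211 to 344 in Con hearts). Fibroblast markers were also apart, at 743 to 1159 in CAC, 497 to 696 in NCAC and 543 to 604 in Con hearts, and at week 4 (695 to 928 in CAC and 572 to 645 in Con hearts) and week 6 (746 to 1055 in CAC and 580 to 666 in Con hearts) CAC hearts were also above all Con hearts. At week 8 endothelial markers were lower, at 201.5 to 249 in CAC, 227 to 278 in NCAC and 279.7 to 316 in Con hearts. Neutrophil markers summed to 14.9 to 44.3 in CAC, 12.2 to 35.7 in NCAC and 7.10 to 19.1 in Con hearts, and lymphocyte markers to 1.06 to 2.04 in CAC, 3.06 to 4.83 in NCAC and 2.67 to 6.01 in Con hearts. Markers of melanoma cells summed to 3.62 to 9.21 in CAC, 2.40 to 6.24 in NCAC and 3.79 to 5.97 in Con hearts, with Tyr and Tyrp1 at a median of 0. The part of these cell types in the proteasome differences was not tested.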

How the data were processed

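Hearts were profiled by RNA sequencing (TruSeq stranded mRNA kit and a NovaSeq instrument, per the labels' protocols) against mm10, per the submitters' processing notes; the aligner, counter, annotation and strand setting are not given in the sources used here. A TPM table for 62 libraries was deposited by the authors. TPM keep no depth. Genes were located in GENCODE M21 and promoters taken from RefSeq.

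TPM of 61 libraries were divided by median-of-ratios factors over 10432 genes at 1 TPM or more in every library. Genes at 1 TPM or more in 5 libraries (12541) were tested on log2(rescaled TPM + 1) with limma 3.58.1 (R 4.3.3; trend), a mean per group and Benjamini-Hochberg adjustment over all genes, called under 0.05; fold changes are on this scale and understate low genes. The program was tested on simulated data. The labels call the samples biological replicates. Each p-value sets a difference against 1 spread per gene, estimated within groups from all 61 libraries and not only from the groups compared. Replicate numbers did not pair samples.

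Members, gene lists and tests were chosen with earlier results of these data known. Named were, for CAC against Con at week 8, the 3 largest changes of each role and every member that fell; elsewhere every call up to 6 or the 3 smallest p; the catalytic subunits; up to 6 calls or the 4 smallest p of each pathway list. Psmd4 and Psmc1 in other weeks, Psmb7 and further genes were named after their values were seen. Alternatives were TPM as deposited, rescaling without 37 mitochondrial and 11 haemoglobin genes, a pseudocount of 0.1, no filter, 5 TPM, all 62 libraries, a replicate block, a fit of only the groups compared, and leaving out libraries in turn. The values of 1 gene of the ubiquitin list are not reported here.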

Additional observations from a re-analysis of the deposited data

Results flagged for a closer look

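In groups of 4 to 7 hearts, a heart was listed when its gap to the nearest of the others was large for the range of its group (Dixon's 95% limit). Of 120 tests 9 were listed, and chance lists about 1 in 20. The 120 take the same groups once for each of several measures, which share hearts and genes, so they are not independent. Con replicate 1 of week 2 was far above the others for the mean log2 level over the 44 genes (5.566 against 5.425 to 5.456), for Psmd4 (50.08 against 37.73 to 39.09 rescaled TPM) and for Psmb5 (121 against 90.36 to 93.16). NCAC replicate 3 of week 8 was high for Psmd4 (52.75 against 37.49 to 40.04). Psme1 was low in CAC replicate 1 of week 2 (70.65 against 77.93 to 80.55) and in NCAC replicate 2 of week 8 (64.77 against 72.47 to 75.31), and high in Con replicate 1 of week 4 (75.42 against 69.6 to 70.24). Psmb6 was high in Con replicate 1 of week 6 (95.24 against 85.63 to 87.03) and low in CAC replicate 4 of week 8 (83.31 against 89.35 to 92.31).

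A difference between arms changed over time in 7 named cases, each by an interaction test (limma, adjusted over all genes). The CAC minus Con difference was larger at week 8 than at week 2 for Psma3 by 0.23, for Psma2 by 0.18 and for Psmd4 by 0.41 on the log2 scale. For Psma3 and Psma2 this was in part a fall in Con hearts, where the alpha ring genes moved by -0.155 to -0.0939. The CAC minus NCAC difference moved by -0.35 for Psmg2, by -0.26 for Psmb7 and by -0.18 for Psma4. On TPM as deposited these last 3 were -0.17, -0.07 and 0.00 and none was called. The CAC minus Con difference of Psme1 moved by -0.44 from week 6 to week 8.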

How the results depend on the processing

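Counts are proteasome genes called by limma, as main value and alternative. Where no direction is given they are totals of both directions. Shares of all genes are not given beside every count, so such counts show only how the number of calls moved with the processing. With TPM as deposited, CAC against Con had 1 call at week 2 (0), 40 at week 6 (15) and 36 at week 8 (21); CAC against NCAC 10 at week 4 (3), 37 at week 6 (15) and 32 at week 8 (14); NCAC against Con at week 8 0 (13); week 8 against week 2 gave 23 in CAC (13) and 0 in Con (9); and the changes of difference from week 2 to week 8 gave 13 (7) and 18 (8), with main values in parentheses. For CAC against Con at week 8 the pathway lists then had calls for 0 of 2 immunoproteasome, 8 of 11 NRF2 target and 5 of 14 ubiquitin genes. Calls were also made for 9 of 14 shuttle, 9 of 13 ligase and 14 of 22 chaperone genes. Of all genes 60.8% were called on TPM as deposited, 50.8% higher and 9.98% lower. Rescaled without mitochondrial and haemoglobin genes, CAC against NCAC at week 8 had 24, NCAC against Con 3, week 8 against week 2 22 in CAC and 4 in Con, and the changes of difference 14 and 17. With all 62 libraries, CAC against Con at week 8 had 12, NCAC against Con 2, Con week 8 against week 2 0, the change of CAC against NCAC 5, the change from week 6 0, and the immunoproteasome 0. With the compared groups alone, CAC against Con had 1 at week 4 and 11 at week 8, CAC against NCAC 1 and 8, NCAC against Con at week 8 0, week 8 against week 2 7 in CAC and 0 in Con, the change of CAC against NCAC 5, the change from week 6 0, and the shuttle list 2. With no filter, CAC against Con at week 4 had 2, and the change from week 6 and the immunoproteasome 0. With the replicate block, the immunoproteasome had 0 and the NRF2 targets 3; replicate numbers are not pairs here (14 of 58 correlations of same-numbered deviations were over 0.1, and 8 were the best of their sample), and 80 of 88 named calls kept their call under the block. The cause of these shifts was not tested. Leaving out 1 heart gave 1 to 4 calls for CAC against Con at week 4, 12 to 15 at week 6 and 15 to 22 at week 8; 1 to 4, 11 to 16 and 12 to 18 for CAC against NCAC; 3 to 21 for NCAC against Con at week 8; 11 to 16 and 1 to 12 for week 8 against week 2 in CAC and Con; 7 to 12, 6 to 10 and 0 to 1 for the changes of difference; and 0 to 1 for the immunoproteasome and 3 to 8 for the NRF2 targets (3 without CAC replicate 1 or 6, 8 without replicate 3). Of 88 named calls, 25 were lost in at least 1 such fit, none under a pseudocount of 0.1, 1 under the 5 TPM filter, 9 with no filter, 10 without mitochondrial and haemoglobin genes, 22 with all 62 libraries and 27 with the compared groups alone. On TPM as deposited 23 were lost and 17 turned sign, and differences not called on rescaled TPM turned too, with Psmb7 called higher in CAC than in Con hearts at weeks 6 and 8: CAC against Con at week 8 Psme3 0.109, Psma4 0.049, Psmb2 0.017, Psmg2 0.092, Psma1 0.093, Psmb7 0.144, AI314180 0.026, Zfand5 0.024, Ube2l3 0.084 and Mul1 0.051; at week 6 Psma4 0.032, Psma1 0.054 and Psmb7 0.202; CAC against NCAC at week 6 Psma4 0.004, Psma1 0.025 and Psmb7 0.200, and at week 8 Psmb5 0.111, Psmb6 0.141 and Psmb7 0.020; and Psma4 0.002 for the change of CAC against NCAC. With all 62 libraries Psma1 turned to 0.010 for CAC against Con at week 4.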
